A study of Mus musculus with 6 samples.

Results

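The 41 genes described here serve fatty acid oxidation and ketone body synthesis: enzymes, carriers and binding proteins, with 2 regulators of fuel choice. They were chosen by symbol for their known function, but with earlier results of these data known. All 41 were found among the 24197 genes of the authors' deposited table. By where their products act, 19 were grouped as mitochondrial, 12 as peroxisomal, 4 as reported in both organelles, and 6 as uptake, activation or regulation. Poly-A selected liver RNA came from intact mice of the outbred stock CD-1, in 3 male and 3 female pools with strand-specific libraries. Each male pool held 17 livers of mice 7 to 9 weeks old and each female pool 12 livers of mice 7 to 11 weeks old, so that livers per pool and the oldest age both differ between the sexes. Values are FPKM (fragments scaled to gene length and library total), which are levels per length. The authors' deposited table gives a mean per sex, a male over female ratio with a further normalization in it, and an adjusted p-value, once for gene bodies and once for introns only. A gene is called here where the authors' adjusted p is under 0.05.

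Fatty acids enter oxidation after activation to acyl-CoA. Mitochondria import long chains as carnitine esters and shorten them by repeated rounds of dehydrogenation, hydration, another dehydrogenation and thiolysis; in liver the acetyl-CoA can become ketone bodies, which feed other organs during fasting. Peroxisomes take the chains that mitochondria handle poorly, such as very long, branched and hydroxylated ones and the side chains of bile acid precursors, and use oxidases that pass electrons to oxygen. Many genes of both routes are targets of the fatty acid sensor PPARA in rodent liver, and growth hormone acting through STAT5 is known for setting sex differences in liver gene expression.

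As recovered from the FPKM of lone reads, the female libraries held 28358105, 38215906 and 41206357 reads. The male libraries held 28415535, 37727874 and 42673908. The X-inactivation RNA Xist and the Y-linked genes Ddx3y, Kdm5d, Uty and Eif2s3y followed the sex labels. In the authors' deposited table the 6 hepatocyte markers summed to 24373 FPKM in female liver and to 18797 FPKM in male, a sum carried by Alb, with 2 of the 6 called toward each sex. The 4 adipocyte and 4 muscle markers stayed at or under 0.0506 FPKM in both sexes in the authors' deposited table, with Lep, Myh7, Acta1 and Ckm at 0. All 5 Kupffer cell markers were called higher in female liver there, with sums of 65.7 and 40.1 FPKM, as were 1 of 4 stellate cell and 1 of 4 lymphocyte markers; none of the 4 cholangiocyte and 4 sinusoidal endothelium markers was called. The part of these markers in the results was not tested. In such bulk samples, fewer cells of a type and less RNA per cell cannot be told apart.

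For 37 of the 41 genes the deposited means could be resolved into whole reads per pool, an analysis added after the data had been seen. The pools are named by their read totals, because nothing ties a total to a labelled pool. Where 3 values of a sex follow each other below, they run from the pool with the fewest to the pool with the most reads. They are shown as a spread and not tested, since 3 against 3 pools allow no two-sided permutation p under 0.1. Pool values are FPKM without the further normalization in the authors' ratio. Overlaps, and log2 ratios from reads per pool, are thus on another scale than the folds and calls. For Acsl1 the male mean FPKM was 137.6% of the female mean, beside a deposited ratio of 1.427. Narrow gaps or overlaps, as in Acsl1, Etfb and Hadhb, could change with that normalization. The solved genes rested on 348 to 157999 reads per sex. Between pools of a sex their coefficient of variation ran from 0.745% to 25.8%, with a median of 4.94%. For Hacl1 and Fabp1 the intron means alone did not settle the gene length, and their pool values rest on all 4 means together. The 4 unresolved genes were Crot, Pex11a, Acsl5 and Slc27a2, which are described by their deposited means.

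Calls were counted by organelle. Of the 41 genes 15 were called in gene bodies in the authors' deposited table, 8 of them toward male and 7 toward female liver. That table called 10% of the 17997 genes above 0 and 25.6% of the 1478 genes of at least 20 FPKM; of these 1478, 13.3% were called toward male and 12.2% toward female liver. Of the 19 mitochondrial genes 1 was called, the dehydrogenase Hadh, and of the 12 peroxisomal genes 7 were, 4 toward male and 3 toward female liver. The difference between these 2 shares was not tested. All 6 genes of uptake, activation and regulation were called, 3 in each direction, and 1 of the 4 genes of both organelles was called. By the authors' deposited ratios, the median log2 difference (male over female) was -0.0059 over the mitochondrial and 0.18 over the peroxisomal genes, beside 0.015 over the 10936 genes of at least 0.5 FPKM. By the authors' deposited table the peroxisomal median was -0.012 in introns. The summed gene body FPKM of the 12 peroxisomal genes was 745 in females and 713 in males there. These sums lack the further normalization in the ratios, so they are on another scale than the medians. A fold of 1.5 or more was reached by 3 of the 15 called genes, Abcd2, Hacl1 and Pdk4, with Ppargc1a just under it. In the authors' deposited table both limits were passed by 6.7% of the 10936 genes of at least 0.5 FPKM and by 10.6% of the 1478 genes of at least 20 FPKM.

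**Figure D1:**
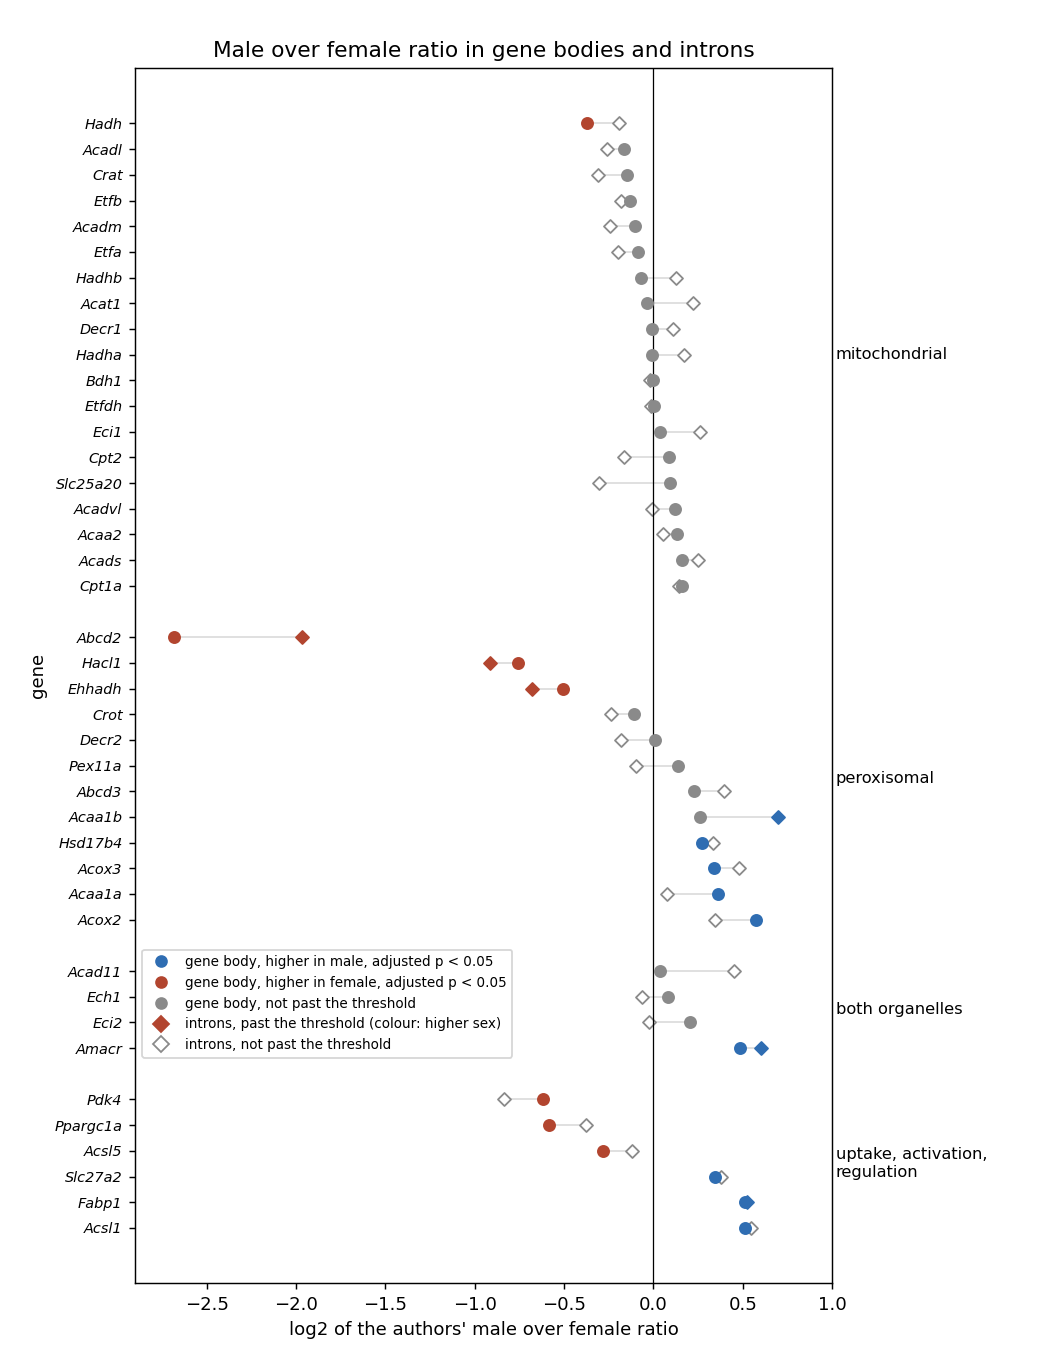
Log2 of the authors' male over female ratio (x axis) for each of the 41 genes (y axis), grouped by organelle; circles are gene bodies, diamonds are introns, blue is called higher in male, red called higher in female, and grey or open symbols are not called. The 18 uncalled mitochondrial genes lie between -0.16 and 0.16, while the peroxisomal genes run from -2.69 for Abcd2 to 0.58 for Acox2.

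The carnitine shuttle moves long chains into mitochondria, and none of its 4 genes was called. Cpt1a, the outer membrane enzyme that controls entry, had 30.3, 33.0 and 29.3 FPKM in the female pools and 34.3, 33.2 and 32.2 FPKM in the male pools. The ranges overlapped, and its log2 ratio in the authors' deposited table was 0.16 with an adjusted p of 0.421. Slc25a20, the carrier of the inner membrane, had 20.7 to 22.8 FPKM in female and 21.3 to 23.5 FPKM in male pools. Cpt2, which returns the chain to coenzyme A inside, had 22.7 to 24.6 and 22.6 to 26.1 FPKM. Both pairs of ranges overlapped. Crat, which exchanges short acyl groups with carnitine, was the lowest of the mitochondrial genes, at 2.87 to 3.13 FPKM in female and 2.19 to 2.95 FPKM in male pools.

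The acyl-CoA dehydrogenases take the first step and hand electrons to the electron transfer flavoprotein, and none of these 7 genes was called. Acadvl, for very long chains, had 78.2 to 84.3 FPKM in female and 81.7 to 90.0 FPKM in male pools. Acads, for short chains, had 34.0 to 40.1 and 38.1 to 44.0 FPKM. In both the ranges overlapped. Acadl, for long chains, had 44.6, 47.7 and 45.7 FPKM in female and 39.7, 40.1 and 38.9 FPKM in male pools. Acadm, for medium chains, had 66.0, 71.5 and 67.6 FPKM in female and 61.6, 60.1 and 62.2 FPKM in male pools. The 2 sexes did not overlap for either, although neither was called, with adjusted p of 0.377 for Acadl and 0.827 for Acadm in the authors' deposited table. Etfa and Etfb encode the 2 subunits of the flavoprotein and had like levels: 123 to 132 FPKM in female and 114 to 117 FPKM in male pools for Etfa, and 132 to 145 and 119 to 129 FPKM for Etfb. Their sexes did not overlap either, with Etfb closest at 132 FPKM in the lowest female and 129 FPKM in the highest male pool, and neither was called. Etfdh, which passes the electrons on to ubiquinone, had 58.2 to 64.7 FPKM in female and 57.5 to 61.1 FPKM in male pools, which overlapped.

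Of the 6 genes of the later mitochondrial steps only Hadh was called. Hadh, the dehydrogenase for medium and short hydroxyacyl chains (chromosome 3, 130936338 to 130975019, build mm9), had 88.5, 101 and 94.8 FPKM in female and 69.4, 70.1 and 72.8 FPKM in male pools. Every female pool was above every male pool. The authors' deposited table put Hadh 1.29-fold higher in females at an adjusted p of 0.00142, and its introns were not called, at an adjusted p of 1. Hadha and Hadhb encode the subunits of the trifunctional protein, which carries out the last 3 steps on long chains. They had 38.2 to 41.1 and 48.0 to 50.2 FPKM in female pools, and 37.6 to 39.7 and 44.0 to 47.6 FPKM in male pools. The sexes overlapped for Hadha and were apart by less than 1 FPKM for Hadhb. Acaa2, the thiolase that splits off acetyl-CoA, was the most abundant mitochondrial gene, at 214 to 230.4 FPKM in female and 229 to 247 FPKM in male pools. Decr1 and Eci1, which prepare double bonds of unsaturated chains for the cycle, had 28.1 to 29.4 and 32.8 to 33.3 FPKM in female pools, and 26.6 to 29.0 and 31.9 to 33.6 FPKM in male pools, with overlap in each.

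The 2 ketone body enzymes were not called. Acat1, the thiolase that joins or splits acetoacetyl-CoA, had 63.6 to 71.2 FPKM in female and 60.8 to 69.6 FPKM in male pools. Bdh1, which interconverts acetoacetate and hydroxybutyrate, had 38.9 to 40.3 FPKM in female and 35.0 to 41.6 FPKM in male pools. For both, the sexes overlapped. Summed over all 19 mitochondrial genes, the pools held 1184, 1257 and 1211 FPKM in females and 1204, 1137 and 1139 FPKM in males. The lowest female pool was below the highest male pool, so the sums overlapped.

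**Figure D2:**
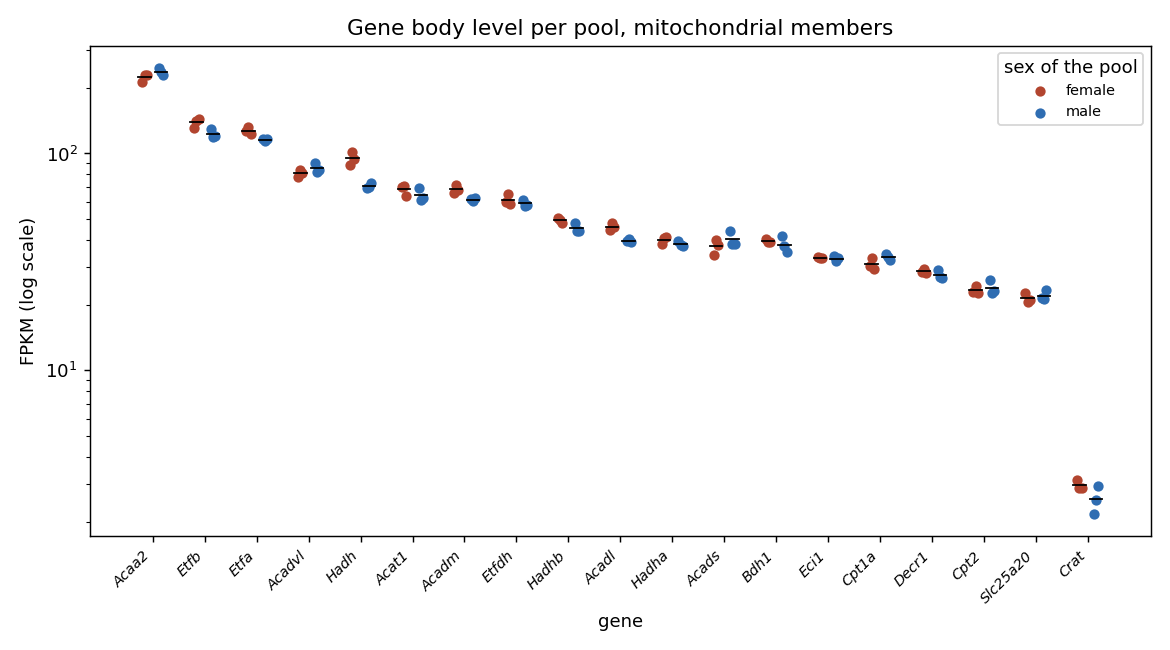
FPKM on a log scale (y axis) of the 19 mitochondrial genes (x axis) in each of 3 female pools (red) and 3 male pools (blue), with black lines at the means of a sex. Hadh is the called gene, at 88.5 FPKM or more in female and 72.8 FPKM or less in male pools, and most other pairs of groups overlap or lie close together.

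Hadha and Hadhb lie head to head, with 272 bases between them on chromosome 5 (Hadha 30444844 to 30481520, Hadhb 30481793 to 30511133, build mm9). The 300-base promoter windows of RefSeq (GRCm38.p6; 250 bases before to 50 after the start) overlap by 228 bases, so the sequence below stands for both. It is shown because both genes start beside it and because it holds a match to TTCNNNGAA, the spacing bound by STAT factors, in capitals. It is the 250 bases before the start of Hadhb, on the plus strand at chr5:30155003-30155252.
Hadhb: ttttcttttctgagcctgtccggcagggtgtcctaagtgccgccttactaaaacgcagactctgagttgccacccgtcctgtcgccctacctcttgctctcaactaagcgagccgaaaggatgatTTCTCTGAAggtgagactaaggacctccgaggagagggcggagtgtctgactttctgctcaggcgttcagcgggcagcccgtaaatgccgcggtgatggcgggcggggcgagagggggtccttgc
The match lies 125 to 117 bases before the Hadhb start and 156 to 148 before the Hadha start. The 2 log2 ratios in the authors' deposited table were -0.0059 for Hadha and -0.067 for Hadhb.

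The largest difference among the 41 genes was that of a peroxisomal transporter, and the peroxisomal calls ran in both directions. Abcd2, a transporter of very long chain acyl-CoA into peroxisomes (chromosome 15, 90976302 to 91022238, build mm9), had 6.65, 7.08 and 5.88 FPKM in female and 0.978, 1.16 and 0.804 FPKM in male pools. The lowest female pool was several times the highest male pool. By the authors' deposited table Abcd2 was 6.43-fold higher in female liver in gene bodies (adjusted p 3.24e-89) and 3.90-fold higher in introns (adjusted p 9.3e-06). The introns held 116 reads in female and 28 in male pools, so that their ratio is the less precise of the pair. Abcd3, the abundant transporter of the same family, had 63.4, 65.8 and 66.4 FPKM in female and 69.4, 73.1 and 78.3 FPKM in male pools, did not overlap between the sexes and was not called, with an adjusted p of 0.117 in the authors' deposited table. From the deposited means, Abcd2 made up 9.11% of the summed FPKM of the 2 transporters in female and 1.32% in male liver.

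Hacl1 and Ehhadh were also higher in female liver in both measurements. Hacl1, the lyase that removes a carbon from hydroxylated chains in alpha-oxidation (chromosome 14, 32420412 to 32454151, build mm9), had 135, 135 and 126 FPKM in female and 76.1, 74.1 and 75.8 FPKM in male pools. The 3 pools of a sex lay close together, and the groups were far apart. The authors' deposited table gave a 1.69-fold difference with an adjusted p of 5.5e-17 in gene bodies, and a 1.88-fold difference with an adjusted p of 1.84e-05 in introns. Ehhadh, the bifunctional enzyme of the L-hydroxy route (chromosome 16, 21761358 to 21787907, build mm9), had 57.3, 68.5 and 63.9 FPKM in female and 43.0, 41.6 and 44.4 FPKM in male pools. Every female pool exceeded every male pool. Its difference in the authors' deposited table was 1.42-fold in gene bodies (adjusted p 9.81e-06) and 1.60-fold in introns (adjusted p 0.0492).

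Hsd17b4 encodes the bifunctional enzyme of the D-hydroxy route, which handles the branched and bile acid precursors, and it differed in the opposite direction to Ehhadh. It had 58.7, 60.5 and 60.8 FPKM in female and 68.5, 68.7 and 72.7 FPKM in male pools. The groups did not overlap, and the authors' deposited table put Hsd17b4 1.21-fold higher in males at an adjusted p of 0.0247. Ehhadh thus made up 51.3% of the summed deposited FPKM of the 2 bifunctional enzymes in female and 38.1% in male liver.

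The oxidases of branched chains were higher in male liver. Acox2, which acts on bile acid precursors and branched chains (chromosome 14, 9058025 to 9091533, build mm9), had 23.4, 28.6 and 29.3 FPKM in female and 40.3, 38.4 and 38.3 FPKM in male pools. All male pools were above all female pools, and the authors' deposited table gave 1.49-fold with an adjusted p of 3.14e-06. Acox3, the less abundant pristanoyl-CoA oxidase (chromosome 5, 35925709 to 35956450, build mm9), had 3.11, 3.49 and 3.51 FPKM in female and 4.46, 3.90 and 4.01 FPKM in male pools. Its groups did not overlap, and the fold in the authors' deposited table was 1.26 with an adjusted p of 0.025. In introns neither oxidase was called, with adjusted p of 0.381 for Acox2 and 0.432 for Acox3 in the authors' deposited table.

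The peroxisomal thiolases, which close the cycle, were called differently in gene bodies and introns, although every deposited ratio was toward male. The difference between the 2 measurements was not tested. Acaa1a had 33.4, 35.1 and 31.2 FPKM in female and 41.2, 40.4 and 41.7 FPKM in male pools, which did not overlap. The authors' deposited table called it 1.28-fold higher in males (adjusted p 0.00211), while its introns differed by 1.05-fold and were not called (adjusted p 1). Acaa1b had 143, 187 and 175 FPKM in female and 190.02, 184 and 209.6 FPKM in male pools. Of the female pools 1 lay above the lowest male pool, and the gene body was not called (adjusted p 0.176 in the authors' deposited table), but the introns were, 1.62-fold higher in males at an adjusted p of 0.00414. Intron FPKM of Acaa1b were 7.25, 5.42 and 6.24 in female and 9.32, 7.97 and 10.8 in male pools. The pair lies 184200 bases apart on chromosome 9, and their reference transcripts are 92.9% identical over 1637 aligned bases, with 34.0% of the 50-base stretches of Acaa1a found unchanged in Acaa1b. How reads that match both were counted is not given in the sources used here, so both values are uncertain.

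Of the other peroxisomal genes none was called. Decr2, a reductase for unsaturated chains, had 42.9 to 51.5 FPKM in female and 43.5 to 46.2 FPKM in male pools. The authors' deposited table gave Crot, which makes carnitine esters of shortened chains for export, 129 and 115 FPKM as female and male means. It gave Pex11a, a membrane protein of peroxisome division, 10.3 and 10.9 FPKM. Among the 4 genes reported in both organelles, Amacr, the racemase that turns branched chains into the form the oxidases accept (chromosome 15, 10911511 to 10926379, build mm9), had 21.8, 21.1 and 21.3 FPKM in female and 31.3, 28.4 and 27.0 FPKM in male pools. The groups were well apart. The authors' deposited table called Amacr higher in males, 1.40-fold in gene bodies (adjusted p 1.36e-05) and 1.52-fold in introns (adjusted p 0.0114). The dehydrogenase Acad11, the isomerase Ech1 and the isomerase Eci2 were not called. Acad11 had 44.9 to 46.8 and 45.1 to 46.0 FPKM in female and male pools, and Ech1 82.8 to 93.4 and 84.6 to 94.9 FPKM. For Eci2 the highest female pool had 39.7 FPKM and the lowest male pool 40.7 FPKM, so the groups did not overlap. The 10 solved genes of the 12 peroxisomal ones summed to 567, 643 and 607 FPKM in female and 580.2, 571 and 609 FPKM in male pools, with overlap.

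**Figure D3:**
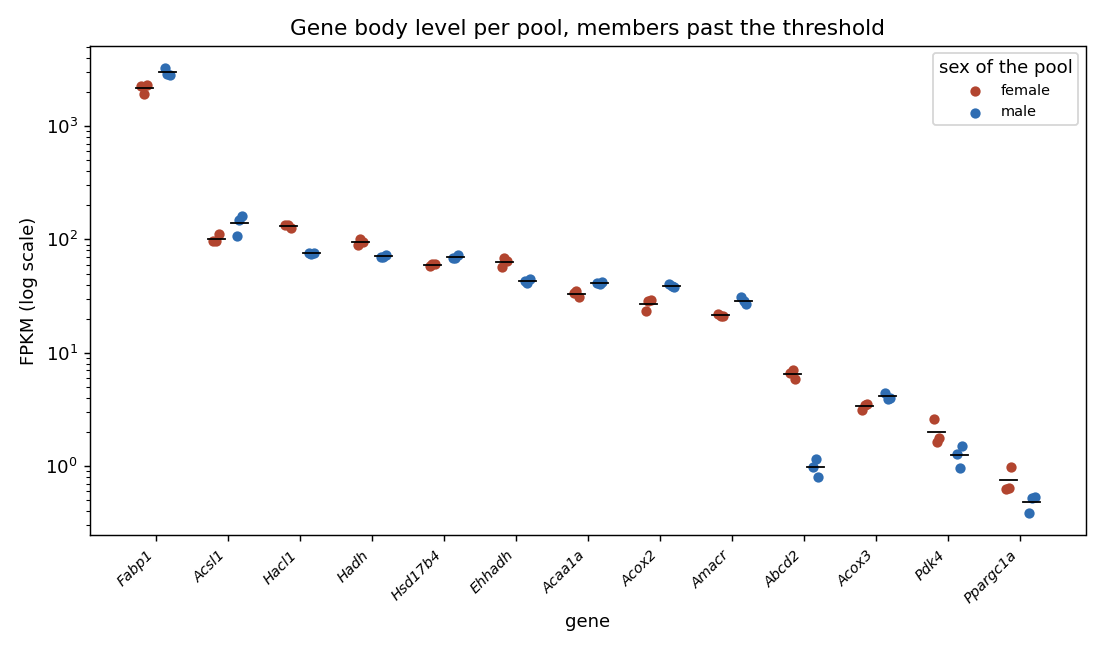
FPKM on a log scale (y axis) of the 13 called genes whose reads were resolved (x axis), in each of 3 female pools (red) and 3 male pools (blue), with black lines at the means of a sex. On this FPKM scale, without the further normalization in the authors' ratio, the groups of 12 genes do not overlap. In Acsl1 the lowest male pool (107 FPKM) lies below the highest female pool (111 FPKM).

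Sequences before the start are printed for the 2 female-higher peroxisomal enzymes that have a window and for Fabp1, the most abundant of the 41 genes, from RefSeq (GRCm38.p6). Ehhadh lies on the minus strand at chr16:21787835-21788084, Hacl1 on the minus strand at chr14:31640966-31641215 and Fabp1 on the plus strand at chr6:71199629-71199878. Capitals mark the match described after them.
Ehhadh: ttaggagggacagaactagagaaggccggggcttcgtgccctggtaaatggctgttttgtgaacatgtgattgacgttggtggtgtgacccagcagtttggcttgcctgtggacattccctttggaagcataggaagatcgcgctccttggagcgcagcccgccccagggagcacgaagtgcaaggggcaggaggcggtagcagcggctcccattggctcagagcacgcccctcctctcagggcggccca
Hacl1: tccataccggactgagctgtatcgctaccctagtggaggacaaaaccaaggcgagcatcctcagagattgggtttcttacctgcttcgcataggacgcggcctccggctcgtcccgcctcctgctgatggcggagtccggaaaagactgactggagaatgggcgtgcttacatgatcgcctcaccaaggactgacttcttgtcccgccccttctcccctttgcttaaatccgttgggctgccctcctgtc
Fabp1: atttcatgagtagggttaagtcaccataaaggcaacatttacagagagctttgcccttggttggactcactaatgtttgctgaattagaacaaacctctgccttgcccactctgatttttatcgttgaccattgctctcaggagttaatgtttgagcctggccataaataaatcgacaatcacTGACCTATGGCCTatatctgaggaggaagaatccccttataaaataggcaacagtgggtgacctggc
AGGTCANAGGTCA, the direct repeat that PPARA binds with its partner RXR, was searched on both strands in the 250 bases before the start, with up to 2 mismatches. It was found for 2 of the 34 genes with a window, Fabp1 and Etfa, beside 3.72% of all 27025 genes with one. In Fabp1 it lies 67 to 55 bases before the start with 1 mismatch, on the opposite strand, and it is the run in capitals. In Etfa it lies 77 to 65 bases before the start with 2 mismatches. TTCNNNGAA, which reads the same on both strands, was found for Cpt2, Hadha and Hadhb, the last 2 through their shared site, beside 8.13% of all genes with a window. The Ehhadh and Hacl1 windows hold neither run of letters.

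All 4 genes of uptake, binding and activation were called. Fabp1, the fatty acid binding protein of the liver cytosol (chromosome 6, 71149882 to 71155017, build mm9), had 2256, 1922 and 2326 FPKM in female and 3243, 2879 and 2821 FPKM in male pools. No female pool reached the lowest male pool. The authors' deposited table called it 1.43-fold higher in males in gene bodies (adjusted p 2.88e-05) and 1.44-fold in introns (adjusted p 0.0275); quantile normalization of the 2 deposited means turned its direction, to a log2 ratio of -0.16. Acsl1, the main long chain acyl-CoA ligase of liver (chromosome 8, 47556391 to 47621405, build mm9), had 95.9, 96.8 and 111 FPKM in female and 107, 148 and 162 FPKM in male pools. The male pool with the fewest reads lay inside the female range. The authors' deposited table put Acsl1 1.43-fold higher in males (adjusted p 2.81e-06). Acsl5, another ligase, differed the other way, with a female mean of 75.8 FPKM and a male mean of 60.1 FPKM, a fold of 1.22 and an adjusted p of 0.0276 in the authors' deposited table. It made up 42.9% of the summed deposited FPKM of the 2 ligases in female and 30.2% in male liver. Slc27a2, an acyl-CoA synthetase for very long chains that also takes part in uptake, had means of 163 and 199.8 FPKM, a fold of 1.27 toward male liver and an adjusted p of 0.00178 in the authors' deposited table.

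Both regulators were low and higher in female liver. Pdk4, the kinase that holds back pyruvate dehydrogenase when fat is burned (chromosome 6, 5433351 to 5446278, build mm9), had 2.58, 1.64 and 1.78 FPKM in female and 1.28, 0.967 and 1.49 FPKM in male pools. The female pool with the fewest reads stood highest, and the groups were close without overlap. The fold in the authors' deposited table was 1.53 with an adjusted p of 0.0256. From the reads per pool its log2 ratio was -0.68, and -0.45 without that female pool. Ppargc1a, a coactivator of oxidation and gluconeogenesis genes (chromosome 5, 51845488 to 51945160, build mm9), had 0.630, 0.645 and 0.971 FPKM in female and 0.385, 0.526 and 0.534 FPKM in male pools. The female pool with the most reads stood apart from the other 2, and the groups did not overlap. Its fold in the authors' deposited table was 1.497 with an adjusted p of 0.0457, and its log2 ratio from the reads per pool moved from -0.64 to -0.40 without that female pool.

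Counted over the 37 solved genes, 3 male and 3 female values did not overlap for 19 genes, or 51.4%, beside 46.3% of 815 other genes of at least 20 FPKM. These others were limited to genes with a single location and under 9000 expected reads per pool. The 37 were held to none of these limits. The share among the 37 was thus near the background, although the sets were chosen differently. The 19 were 12 of the 13 called genes, Acsl1 being the exception, and 7 of the 24 uncalled ones: Acadl, Acadm, Etfa, Etfb, Hadhb, Abcd3 and Eci2. This list holds on the FPKM scale, without the further normalization in the authors' ratio. Genes with narrow gaps or overlaps, Acsl1 among them, could change sides with it. Of the 815 other genes 377 did not overlap, and 203 of these were among the 638 uncalled ones (31.8%). Nearly all called other genes were thus without overlap too. Lack of overlap in a called gene is therefore no separate support for its call.

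Introns are another measurement of the same libraries, made of reads from RNA that is not yet spliced or was retained. Of the 41 genes 6 were called there in the authors' deposited table, beside 3.16% of 16569 genes above 0 and 4.98% of 6587 genes of at least 0.05 intron FPKM. Acaa1b, Amacr and Fabp1 were higher in males and Ehhadh, Abcd2 and Hacl1 in females, so that 4 of the 6 are peroxisomal and none is in the mitochondrial group. The median intron level was 0.157 FPKM over the mitochondrial and 0.472 FPKM over the peroxisomal genes. The part of intron level in this split was not tested. Intron levels were far lower, with 16 to 11798 intron reads per sex, and 10 of the 15 genes called in gene bodies were not called in introns. Each of the 6 was without overlap between the pools, and 16 of the 37 solved genes were, beside 30.3% of 815 other genes. Hacl1 introns had 1.71, 2.26 and 2.21 FPKM in female and 0.880, 0.980 and 1.15 FPKM in male pools. Ehhadh introns had 0.138, 0.116 and 0.0938 FPKM in female and 0.0613, 0.0574 and 0.0767 FPKM in male pools. Abcd2 introns had 0.0375, 0.0279 and 0.0180 FPKM in female and 0.00348, 0.00984 and 0.00522 FPKM in male pools, and so were the lowest of the 6. Toward male liver, Amacr introns had 0.766, 0.579 and 0.679 FPKM in female and 0.982, 0.903 and 0.924 FPKM in male pools. Fabp1 introns, the highest of the 6, had 20.7, 15.4 and 17.2 FPKM in female and 23.9, 23.7 and 22.7 FPKM in male pools.

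**Figure D4:**
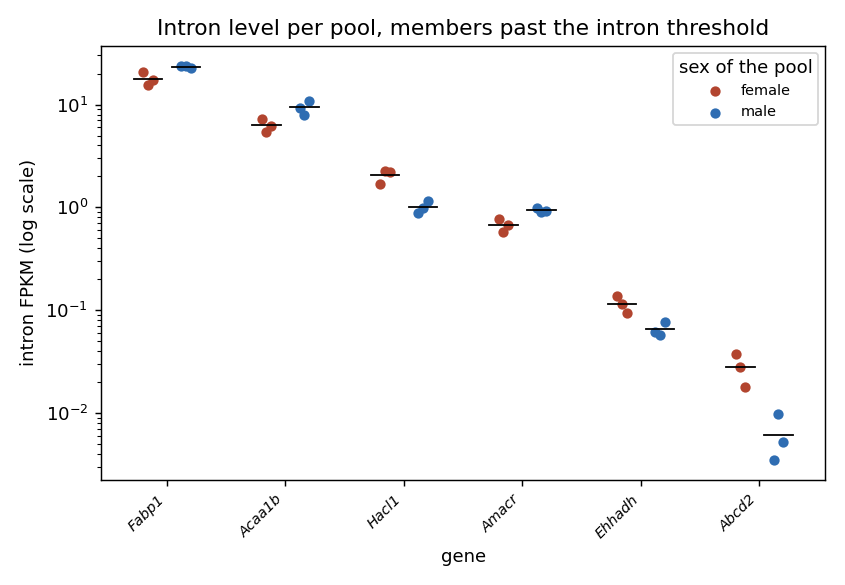
Intron FPKM on a log scale (y axis) of the 6 genes called in introns (x axis), in each of 3 female pools (red) and 3 male pools (blue), with black lines at the means of a sex. The sexes are apart in all 6, and the levels run from 0.00348 FPKM for Abcd2 in a male pool to 23.9 FPKM for Fabp1 in a male pool.

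Other genes of these pathways, 93 in 7 lists, showed 21 calls among the 88 measured at 0.5 FPKM or more in the authors' deposited table: 11 toward male and 10 toward female, beside 13.8% of all 10936 genes at that level. Among the 1478 genes of at least 20 FPKM the share called was 25.6%. The lists were written with earlier results of these data known. Of 18 other mitochondrial oxidation genes 1 was called, the dehydrogenase and complex I assembly factor Acad9, with a female mean of 6.87 and a male mean of 4.97 FPKM in the authors' deposited table. None of 7 other ketone metabolism genes was called. Of 11 other peroxisomal oxidation genes 5 were called, 4 of them higher in male liver. Scp2, which encodes a thiolase and a lipid carrier, had 404 and 1009 FPKM as female and male means, a 2.59-fold difference, in the authors' deposited table. Nudt7, a hydrolase that breaks down coenzyme A in peroxisomes, had 54.8 and 131 FPKM, a 2.49-fold difference there. Of 17 peroxisome biogenesis genes only the membrane protein Pxmp2 was called, higher in female liver.

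Of 12 other genes of activation and uptake 5 were called in the authors' deposited table. The fatty acid binding protein Fabp2 had 22.1 and 30.6 FPKM as female and male means there and was higher in male liver, as was the ligase Acsm2 at 0.413 and 0.715 FPKM. The fatty acid translocase Cd36 was higher in female liver, at 4.98 and 2.95 FPKM in the authors' deposited table. Of 11 regulators 2 were called, both higher in female liver: the kinase Pdk1, and Acacb, whose product malonyl-CoA blocks the carnitine shuttle. Of 12 other PPARA targets 3 were called toward male and 4 toward female liver. The hormone Fgf21 had means of 0.393 FPKM in females and 1.18 FPKM in males, and the fatty acid hydroxylase Cyp4a10 had 55.0 and 11.9 FPKM, in the authors' deposited table. Targets of this factor differed in both directions, as the 41 genes did.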

How the data were processed

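Poly-A selected liver RNA was sequenced from 3 male and 3 female pools. Per the submitters' processing notes, TopHat2, featureCounts and edgeR were used with mm9; neither versions nor steps are stated there. Per the file headers, the authors deposited a mean FPKM per sex, a normalized male over female ratio (also as a signed fold) and an adjusted p-value, for gene bodies and for introns only; the way p was adjusted is not stated. Their comparison was described and no new fit was made, since the table holds no counts per pool. The members and gene lists were chosen with earlier results of these data known. Named genes were all 41 members, per list up to 2 called genes a direction by fold and up to 2 uncalled genes by level, and markers; some genes that the rule names are not reported here.

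Reads per pool were recovered after the data had been seen. A lone read on a small RNA gene fixes its library's total, and each total came from 19 to 37 genes. The deposited means are written to 11 decimals, so whole reads in 3 pools were sought that give all 4 means of a gene (2 sexes, gene body and introns) at 1 exon length, within 25% of the length annotated in GENCODE M21 and within 30% of the sex's mean per pool, or wider where reads were few. Intron values proved to be scaled to intron length and the same totals. Of 1500 other genes tried at their annotated length alone, 212 solved in both sexes, 8 in 1 sex and 1280 in neither. The number of wrong lengths that the intron means alone would let through was at most 0.05 for 35 solved members, but 0.609 for Hacl1 and 0.0647 for Fabp1; with the gene body means it was 0.0031 and 0.014. For all 14 members where gene bodies alone fixed a length, it equalled the joint length. On a gene of 1 kilobase a read adds 0.00781 to 0.0118 FPKM to a sex's mean, and values carry counting error beside the spread between pools. Starts were raised by 1 base to count from 1. Promoter windows came from RefSeq (GRCm38.p6). Python 3.11.15, numpy 2.4.6, pandas 2.3.3 and numba 0.67.0 were used.

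Alternatives were an adjusted p under 0.01, a fold of 1.5, other limits on low values, pseudocounts of 0.1 and 1 FPKM, quantile normalization, rescaling without the 50 most abundant genes, introns, and counting the genes of both organelles with either one. Pseudocounts, quantile normalization and rescaling were applied to the mean FPKM, without the further normalization in the authors' ratio.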

Additional observations from a re-analysis of the deposited data

How the results depend on the processing

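Calls among the 41 genes went from 15 to 3 with a fold of at least 1.5 and to 6 in introns, calls in introns from 6 to 3 at an adjusted p under 0.01, and calls among other pathway genes from 21 to 9 with the fold limit and to 7 in introns. The pseudocount, quantile and rescaled values below start from the mean FPKM, which lack the further normalization in the authors' ratio. Their distance from the main values holds that difference as well as the named change. The median log2 ratio of the 41 genes, 0.037, was -0.016 and -0.015 with pseudocounts of 0.1 and 1, -0.0099 after rescaling and -0.012 in introns. The mitochondrial median, -0.0059, was -0.058 and -0.057 with these pseudocounts, -0.022 after quantile normalization, -0.053 after rescaling and 0.0020 with the genes of both organelles added. The peroxisomal median, 0.18, was 0.13 with either pseudocount and after quantile normalization, 0.14 after rescaling, -0.012 in introns and 0.17 with those genes added. With a pseudocount of 0.1 the median of all 10936 genes was -0.037 in place of 0.015. Fabp1 was reversed by quantile normalization, at -0.16, and the cause was not tested. The other 14 called genes kept their direction under each scaling. A pseudocount cannot turn the direction of the mean FPKM, and rescaling applied the same factor to every gene of a sex. Kept directions under those settings are thus little support. Leaving out each pool in turn gave 222 log2 ratios of the 37 resolved genes, and none of the 13 called genes among them changed direction. For 12 of these 13 the pools of the sexes did not overlap, so leaving out a pool could not turn the direction. For those genes the kept direction is no separate support. Without 1 pool the log2 ratio from reads per pool ran from -0.83 to -0.45 for Pdk4, from -0.75 to -0.40 for Ppargc1a and from 0.34 to 0.62 for Acsl1. No paired analysis was possible because the deposited table carries no pool numbers. Depth limits the introns most, where Pdk4 had 31 reads in female and 16 in male pools.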
